A study of Mus musculus with 13 samples.

Results

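The sequences described here are the rows of a mouse small RNA table that carry the RNA class precursor_RNA, antisense_RNA or sRNA. They were taken by that class label alone and number 495 of the 18385 sequences in the table. Of these, 257 were precursor_RNA on 43 reference records, 104 were antisense_RNA on 11 records and 134 were sRNA on 54 records. A record is a reference transcript to which the authors assigned the sequence, given by its RNAcentral name and with positions counted along that transcript. Each row is 1 unique read sequence, and its value is RPM, the reads of that sequence scaled to a fixed total per library. The authors' name for the table includes nonmiR, so microRNA rows in it need not hold all microRNA reads of a library.

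Small RNA sequencing was held for 9 libraries, 1 per group, from 3 kinds of cell. HOXB8 cells, a mouse myeloid progenitor line held undifferentiated by estradiol, gave input, biotin and WGA libraries. HOXB8 cells after differentiation gave the same 3 and a biotin library treated with PNGase F, an enzyme that removes N-linked glycans. Primary mouse neutrophils gave input and WGA libraries. Input is small RNA under 300 nt cut from a gel. Biotin is RNA captured on streptavidin after azide-bearing sialic acid sugars were clicked to biotin, and WGA is RNA captured on wheat germ agglutinin, a lectin that binds sialic acid and N-acetylglucosamine. The labels give the gel cut for input only, so capture and size selection cannot be told apart in any comparison with input. The HOXB8 cells were grown in medium with SCF at 100 ng/ml, and the sugar label was Ac4ManNAz at 100 µM, given with Gal at 10 µM and GalNAc at 100 µM over 36 h. The undifferentiated cells also had 1 µM estradiol. The labels do not say whether the neutrophils were fed the azido sugar. With 1 library per group, every interval below is a 95% exact interval that covers counting error only, and differences between libraries have no replicate check. Reads made by PCR without molecular identifiers are not independent molecules.

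Small RNA libraries hold microRNAs, which guide Argonaute proteins to messenger RNAs, together with pieces of longer RNAs such as snoRNAs, which guide chemical modification of ribosomal RNA. Names such as precursor, antisense and sRNA in reference collections describe the long transcript a record came from and not a single biochemical class. Long transcripts often contain retrotransposon copies such as LINE-1 and the B1 SINE, and a short read from a repeat fits many records at once.

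Many of the members, though not most, fell into families that share a 3′ end. The largest was a nested series of 33 sequences of 16 to 58 bases. Every one ended on exactly the same base, and each longer form held the shorter ones. The following forms show this, with the last 8 bases in capitals.
17-base form, antisense_RNA: ttctgactgGTGTGAGG
18-base form, precursor_RNA: attctgactgGTGTGAGG
27-base form, precursor_RNA: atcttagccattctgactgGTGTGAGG
32-base form, precursor_RNA: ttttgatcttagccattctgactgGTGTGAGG
The class label changed with length although the letters did not. The 17-base form was listed as antisense_RNA on record URS0000753F09, from position 92355 to 92371, while the 18-base form, 1 base longer at its 5′ end, was listed as precursor_RNA on record URS000037450D, from 33142 to 33159. Of the 33 forms, 28 were precursor_RNA and 1 was antisense_RNA on 18 records in all, and 4 lay in other classes, 3 of them pre_miRNA. As background, letters of this kind are known from LINE-1 copies. No genome was used here, and the copies were not looked up.

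Shared ends of 8 bases held 47.9% of the members, although in simple repeats such an ending need not mark a fixed place. When the members were grouped by their last 8 bases, 10 groups had 10 or more members each. These groups held 237 members and 70.3% of the members' mean RPM over the 9 libraries. The same 10 ends were carried by 347 (1.94%) of the 17890 sequences of all other classes, 165 of them ending in GTGTGAGG. As the ends were chosen for being carried by 10 or more members, a higher share among members was set by that choice. Shares within single other classes were not computed. The groups were formed after their values were seen and are described without a test. The most abundant sequence of each group other than the nested series is printed to let the shared endings, in capitals, be compared.
Group 2, sRNA: attctgactgGTGTGAGA
Group 3, precursor_RNA: gtttaggagTTCTCTGG
Group 4, sRNA: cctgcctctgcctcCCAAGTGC
Group 5, precursor_RNA: ggtcttctcaTTGTGTCC
Group 6, precursor_RNA: gtgtgtgtgtgTGTGTGTG
Group 7, precursor_RNA: atggatggaTGGATGGA
Group 8, sRNA: ttggtggtTTAGTCCC
Group 9, precursor_RNA: gggaggcaGAGGCAGG
Group 10, sRNA: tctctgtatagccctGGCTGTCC
Groups 4 and 10 have the letters of the B1 SINE, and groups 6 and 7 are simple repeats, again from general knowledge and not from a search of the genome. Read on the other strand, the printed group 4 sequence holds the whole printed group 9 sequence. Group 1, which ends in GTGTGAGG, held 107 members on 28 records, 96 of them precursor_RNA, and 55.4% of the members' mean RPM. Group 2 held 11 members, all sRNA on 1 record. Groups 3 and 5 held 19 and 13 members, of which 17 and 13 were precursor_RNA. Groups 4, 8 and 10, with 17, 14 and 12 members, held no precursor_RNA and were divided between antisense_RNA and sRNA.

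The precursor_RNA records placed 3 of these ends in a like order. Ends of group 1 lay between positions 33155 and 33848, those of group 3 between 34354 and 34660, and those of group 5 between 37100 and 37423. In the 10 records that held both groups 1 and 3, the 2 ends were 889 to 1178 bases apart with a median of 909. In the 10 records that held both groups 1 and 5, they were 3656 to 3958 bases apart with a median of 3676. The ends of groups 3 and 5 were 2467 to 3032 bases apart in 5 records. Groups 1 and 7 varied more, at 20424 to 37330 bases in 3 records. Records with this spacing are not counted here as separate loci. The simple repeats of group 6 had no such place, with ends from 10283 to 24258.

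What follows the ends was looked up as well. Members were searched, on both strands, in 32851 promoter windows of RefSeq with a median length of 300 bases (GRCm38.p6), which served only as a sample of genome sequence. Of the 124 members with a match, 79 (63.7%) were most often followed by TGG. The 3 letters TGG stood at 2.03% of all positions of these windows. Among sequences of other classes with a match, 39.8% of 379 were most often followed by TGG, and the classes differed among themselves. The share was 67.6% of 111 pre_miRNA and 59.0% of 83 miRNA sequences, all 5 of SRP_RNA, 1.47% of 68 rRNA and 6.52% of 46 tRNA sequences. A high share was therefore not particular to the members. Nested forms with 1 ending share their sites and are not separate observations, as the 12 matched members of group 3 each had a single match. With sequences that share their last 8 bases counted once, most sequences were followed by TGG for 25 of 39 member endings (64.1%) and for 47 of 189 endings of other sequences (24.9%). TGG came most often after 13 of 13 matched members of group 5, 9 of 9 of group 8, 8 of 8 of group 10, 4 of 6 of group 4, 1 of 9 of group 9, and none of the 13 of group 6 or the 4 of group 7. Members of group 1 had no match in the windows. Within the table itself, 39 members lay inside a longer row of the table and were not at its 3′ end, and 15 of them (38.5%) were most often followed by TGG, against 10.4% of 7865 other sequences. Of these 15, 5 belong to group 7, a repeat of 4 letters that itself sets the next letters. The share was 66.7% of 27 snRNA and 34.2% of 114 snoRNA sequences. The 6 letters TGGAAT followed at least 1 match of 20 of the 124 matched members and of 23 of the 379 other sequences. All 12 matched members of group 3 were among the 20, and TGGAAT stood at 0.0261% of all positions of the windows. Within the table, TGGAAT followed 2 of the 39 members and 74 of the 7865 other sequences in at least 1 longer row. As background, the 3′ adapter of the TruSeq small RNA kit that the labels name begins with TGG. Its part in where these reads end was not tested.

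Levels of the 3 classes were highest in HOXB8 input. Summed precursor_RNA stood at 18268 RPM in HOXB8 input, 2575 in biotin and 4985 in WGA. The differentiated libraries held 6908 RPM in input, 1854 in biotin, 3985 in WGA and 1826 in biotin with PNGase F, and in neutrophils at 2277 in input and 4487 in WGA. The captured libraries were thus below input in both HOXB8 states and above it in neutrophils. Antisense_RNA had the same order at lower levels, with 4353, 635 and 1211 RPM in input, biotin and WGA of HOXB8 cells. It stood at 1775, 480 and 1061 RPM in the differentiated input, biotin and WGA libraries, at 445 in the PNGase F library, and at 316 and 635 in input and WGA of neutrophils. Summed sRNA stood at 3819, 802 and 1149 RPM in input, biotin and WGA of HOXB8 cells. In differentiated cells sRNA stood at 1801 RPM in input, 2068 in biotin, 1482 in WGA and 2018 in the PNGase F library, and in neutrophils at 966 and 2049. The biotin and PNGase F libraries of differentiated cells were the captured HOXB8 libraries in which a class, sRNA, exceeded the input.

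**Figure D1:**
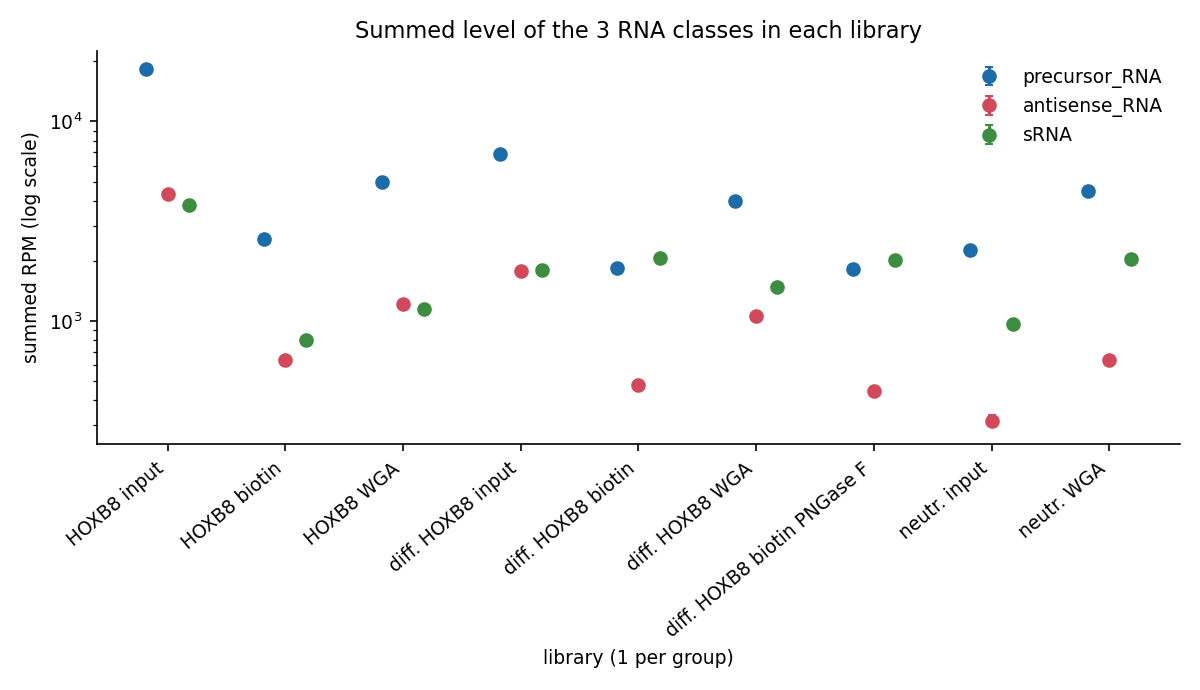
Summed RPM (log scale) of precursor_RNA, antisense_RNA and sRNA sequences in each of the 9 libraries, with 95% exact intervals of the counts, mostly smaller than the points. HOXB8 input holds the highest sum of each class, 18268 RPM for precursor_RNA, and neutrophil WGA lies above neutrophil input in all 3 classes.

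Depth was uneven. Library totals, read from the value of 1 read, ran from 3110323 to 9922659 reads, and member reads from 11070 to 99041. The table held 39.3% of the reads of HOXB8 input and up to 96.7% of the others, so RPM and a share of the table scale that library differently. Myeloid microRNAs were read as markers of the labelled cells, as sums over the rows left in this nonmiR table. These sums need not be the full microRNA levels. In input libraries, miR-223-3p, abundant in mature neutrophils, stood at 4.27 RPM in HOXB8 cells, 475 in differentiated cells and 4345 in neutrophils, and miR-142a-3p at 6.41, 56.7 and 422. The passenger strand miR-223-5p was highest in differentiated input, at 0.801, 80.6 and 46.9 RPM in the same order. In neutrophil WGA miR-223-3p stood at 0.202 RPM.

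As ratios of RPM, precursor_RNA in WGA was 0.273 of input in HOXB8 cells (0.269 to 0.277), 0.577 in differentiated cells (0.568 to 0.586) and 1.97 in neutrophils (1.92 to 2.02). Antisense_RNA gave 0.278, 0.598 and 2.01 in the same order, and sRNA gave 0.301, 0.823 and 2.12. As sums, the 3 classes had like ratios in HOXB8 cells and in neutrophils, and sRNA had the highest ratio of the 3 in differentiated cells. In neutrophils 1 microRNA sequence, let-7g-5p, held 71.8% of the precursor_RNA sum in input and stood at 0.403 RPM in WGA. The precursor_RNA ratio there rested in large part on it, and no setting left it out. With sequences of 20 or more bases alone, differentiated WGA was above input for antisense_RNA (log2 ratio 0.54) and for sRNA (0.69), where all lengths together gave −0.74 and −0.28. Against biotin, which shares its input libraries with the WGA comparison, precursor_RNA stood at 0.141 of input in HOXB8 cells and 0.268 in differentiated cells, and antisense_RNA at 0.146 and 0.270. The sRNA class stood at 0.210 in HOXB8 cells and at 1.15 in differentiated cells (1.12 to 1.18). Without its most abundant sequence the last value fell below input, with a log2 ratio of −1.48 in place of 0.20. With PNGase F the sums stood at 0.985 of biotin for precursor_RNA (0.961 to 1.01), 0.927 for antisense_RNA (0.883 to 0.973) and 0.976 for sRNA (0.954 to 0.998). RPM is a share of its own library, so a loss of captured RNA across the whole library would not show in these ratios.

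Counted sequence by sequence, the direction was shared by most members with enough reads. Nested forms and single-base variants of 1 series are among them and are not separate observations. A mean of 10 RPM or more over the 9 libraries was reached by 99 members (66 precursor_RNA, 10 antisense_RNA and 23 sRNA), a filter that a sequence can pass through 1 library. In HOXB8 WGA, 8 of the 99 were at least 2-fold higher than input and 71 were at least 2-fold lower. Over all 3891 sequences with that mean, 54.2% were higher and 33.1% lower. In differentiated WGA, 19 members were higher and 53 lower, against 38.9% and 45.1% of all sequences. In neutrophil WGA, 60 were higher and 17 lower, against 12.5% and 36.4%. By class, 45 of 66 precursor_RNA, 5 of 10 antisense_RNA and 10 of 23 sRNA members were higher there. In HOXB8 biotin, 9 were higher and 79 lower, against 52.9% and 35.2%, and in differentiated biotin 13 were higher and 71 lower, against 48.5% and 38.6%. The PNGase F library differed from biotin by 2-fold in 15 members upward and 22 downward, against 15.2% and 15% of all sequences. The members' median log2 ratio in WGA was −2.44 in HOXB8 cells, −1.31 in differentiated cells and 2.81 in neutrophils, and over all sequences it was 1.85, −0.54 and −2.41.

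**Figure D2:**
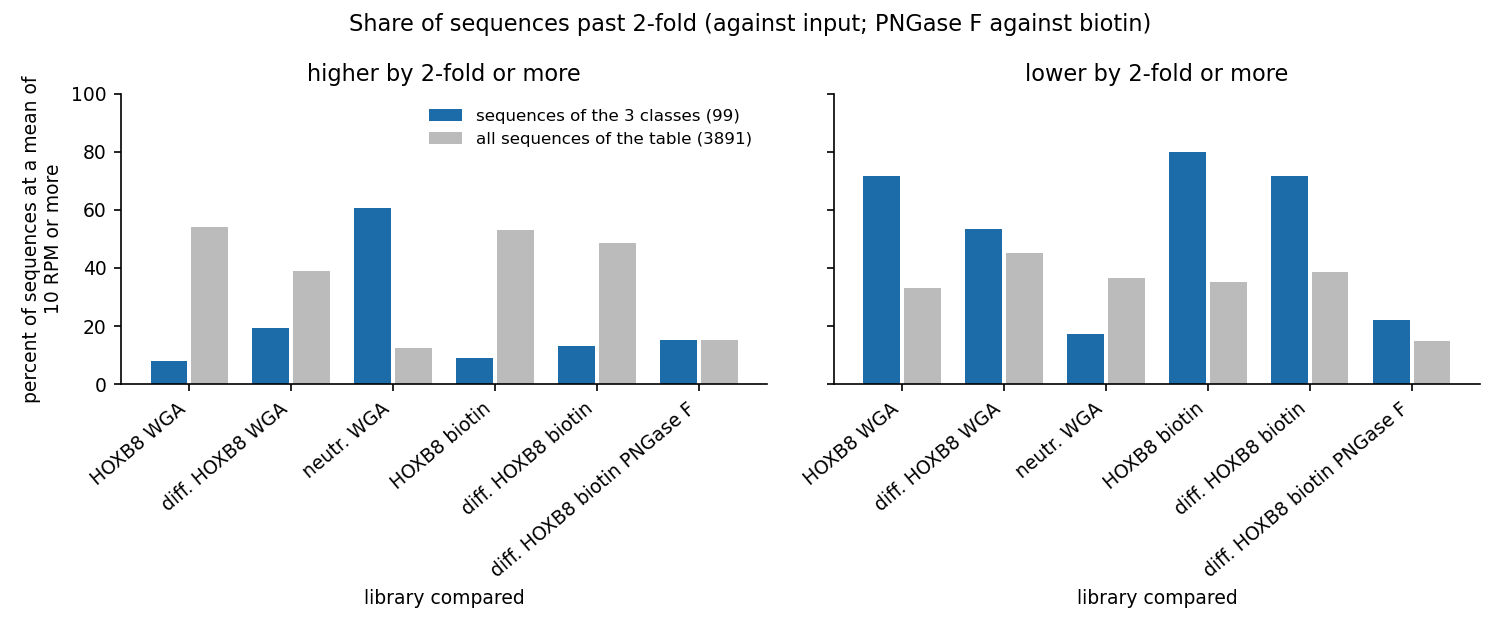
Percent of sequences at a mean of 10 RPM or more that were higher (left) or lower (right) by 2-fold or more, for the 99 member sequences and for all 3891 sequences of the table. Each captured library is set against its input and the PNGase F library against biotin. Members were mostly lower in the HOXB8 libraries and higher in neutrophil WGA.

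Across the 3 kinds of cell, a limma fit of log2(RPM + 1) with the kind of cell as a block called none of the 495 members at an adjusted p of 0.05. It called 99 of 18385 sequences, all of them lower in WGA (0.538%). At an unadjusted p under 0.05 it had 45 members and 8.77% of all sequences, and edgeR on the recovered reads also called no member, with 29 under 0.05 before adjustment, 5.86% of them, against 5.06% of all sequences. Over the whole table edgeR called 13 (0.0707%). The fit has 1 library in each cell of the design. The 3 members with the smallest p are described below. Among them the lowest limma adjusted p was 0.0949.

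The nested series accounted for much of these sums. Its 33 forms summed to 14618 RPM in HOXB8 input, 2282 in biotin and 4318 in WGA. In differentiated cells they summed to 4998 RPM in input, 1307 in biotin, 2903 in WGA and 1345 in the PNGase F library. In neutrophils they summed to 467 RPM in input and 3525 in WGA. The member forms made up from 11.7% of all member RPM in neutrophil input to 57.7% in HOXB8 WGA. In neutrophils the sum was thus several times higher in WGA than in input, the opposite of HOXB8 cells.

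The 18-base form, the most abundant member, stood at 3860 RPM in HOXB8 input, 727 in biotin and 1434 in WGA. It stood at 1469, 423, 899 and 399 RPM in the differentiated input, biotin, WGA and PNGase F libraries and at 23.5 and 378 RPM in input and WGA of neutrophils. The WGA to input ratio was 0.371 in HOXB8 cells (0.361 to 0.382), 0.612 in differentiated cells (0.591 to 0.634) and 16.1 in neutrophils (12.8 to 20.6). The 17-base form stood at 2505, 314 and 639 RPM in input, biotin and WGA of HOXB8 cells. In the differentiated state it stood at 984, 190, 339 and 179 RPM in input, biotin, WGA and PNGase F, and in neutrophils at 181 and 322. Its ratio in neutrophils was 1.78 (1.62 to 1.95), far below that of the 18-base form. The 18-base to 17-base ratio was between 1.49 and 2.65 in the 7 HOXB8 libraries, 0.13 in neutrophil input (0.10 to 0.17) and 1.18 in neutrophil WGA (1.12 to 1.23). Neutrophil input was therefore the 1 library in which the 17-base form, the one labelled antisense_RNA, exceeded the 18-base form.

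Lengths differed as well. Forms of 16 and 17 bases made up 49.9% of the series in neutrophil input, 18.3% in neutrophil WGA and 20.3% to 32.3% in the HOXB8 libraries. Forms of 31 bases or more made up 17.5% in neutrophil WGA, 2.96% in neutrophil input, and 1.74% to 7.19% in the HOXB8 libraries. The 27-base form was a second peak in HOXB8 cells, at 1997 RPM in input, 230 in biotin and 470 in WGA. In the differentiated state it stood at 615, 201.3, 479 and 206 RPM in input, biotin, WGA and PNGase F, and in neutrophils at 6.43 and 156. The 32-base form was higher in WGA than in input on the RPM scale in each kind of cell. It stood at 7.74 RPM in HOXB8 input, 10.7 in biotin and 13.2 in WGA, and at 0.788, 3.48, 24.4 and 12.4 in differentiated input, biotin, WGA and PNGase F. In neutrophils the 32-base form had no read in input and 177 RPM in WGA, at least 149-fold higher by the exact interval. The HOXB8 direction depends on the scale, with a log2 ratio of 0.77 by RPM (0.13 to 1.45) and −0.43 as a share of the table. In differentiated cells it was 4.95 and 4.49.

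**Figure D3:**
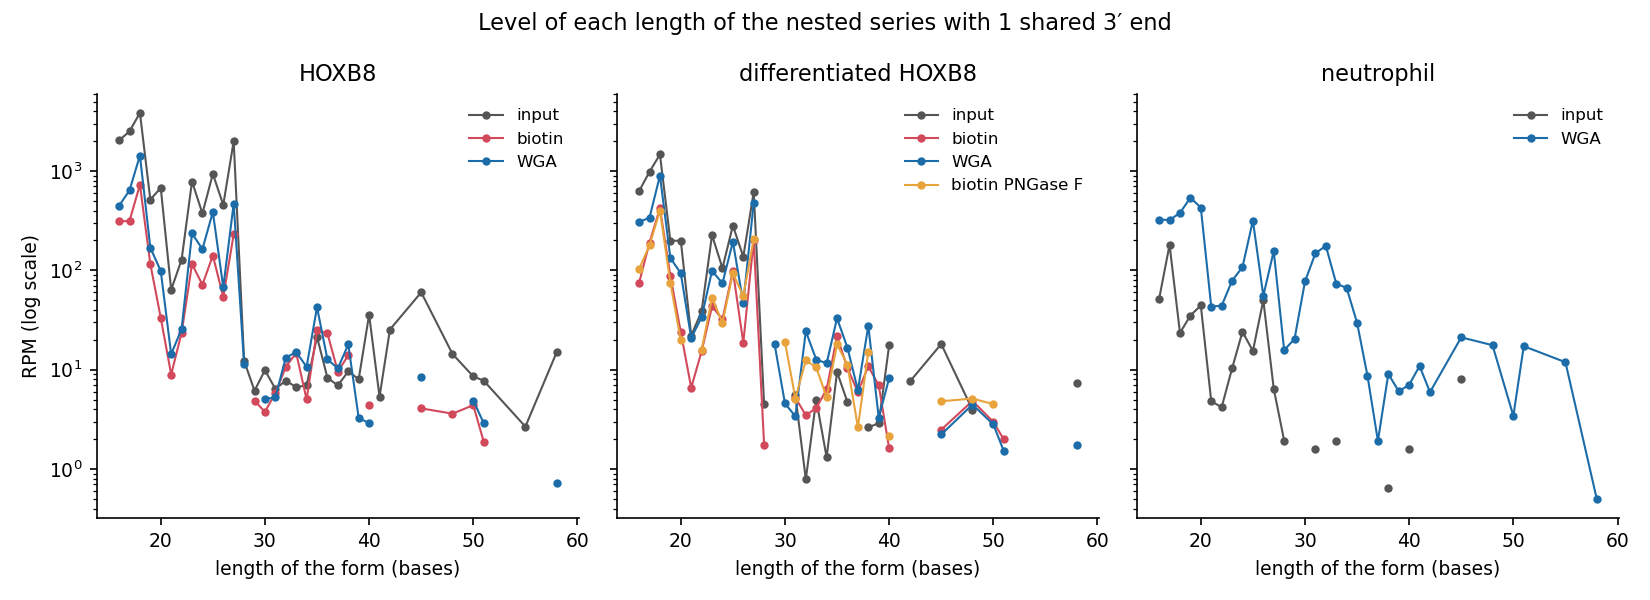
RPM (log scale) of each length of the nested series with 1 shared 3′ end, by kind of cell, with 1 line per library. Points at 0 RPM are left out, and lines break there. In HOXB8 and differentiated cells the lines peak at 18 and 27 bases, and in neutrophils the WGA line lies above input and keeps forms past 31 bases.

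Sequences 1 base away from the 18-base and 17-base forms were common. The table held 42 single-base variants of the 18-base form, at all 18 positions, and 34 of the 17-base form, at all 17 positions. Of these, 19 and 17 were members. Most were minor, with a median of 0.633% and 0.815% of the parent form in HOXB8 input. A variant ending in A (G18A, counted from 1 at the 5′ end) was 15.2% of the 18-base form in HOXB8 input and leads group 2. It followed its parent in HOXB8 cells, at 587 RPM in input, 120 in biotin and 205 in WGA.

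Of the 76 variants, 6 had a highest input more than 10 times their highest captured library, and 5 of these are members. The share of all sequences of the table past that rule was not computed, so the count is a description only. The T2C and T3C variants had the highest levels of the 6. They are T3C of the 18-base form, a precursor_RNA sequence, and T2C of the 17-base form, an antisense_RNA sequence, with positions counted from 1 at the 5′ end of each printed form.
The T2C sequence lies on record URS00008C4221 and stood at 748 RPM in HOXB8 input, 0.157 in biotin (1 read) and 0 in WGA. It stood at 249 RPM in differentiated input, at 0 in the other 3 differentiated libraries, at 4.82 RPM in neutrophil input and at 0 in neutrophil WGA. WGA was at least 1119-fold lower than input in HOXB8 cells by the exact interval, while the 17-base parent was 3.92-fold lower (3.77 to 4.08). The limma log2 change of T2C was −6.68 ± 1.42 (SE) with an adjusted p of 0.0949, the smallest of the members, and WGA was lower in 3 of 3 kinds of cell. The T3C sequence, 1 base longer and with the same change, stood at 515 RPM in HOXB8 input, 6.12 in biotin and 0 in WGA. In the differentiated state it stood at 162 RPM in input, 4.35 in biotin, 2.81 in WGA and 0 with PNGase F, and it had no read in the neutrophil libraries. Its HOXB8 WGA level was at least 771-fold lower than input by the exact interval. The other 4 were lower. T14G of the 18-base form, precursor_RNA, stood at 28.8 RPM in HOXB8 input and 107 in differentiated input, and at up to 4.23 in a captured library. T13G of the 17-base form, the same letter change 1 base shorter, stood at 8.81 and 77.7 RPM in those inputs and at up to 6.16 in a captured library. G16C of the 17-base form, antisense_RNA, stood at 16.02 and 5.78 RPM and at up to 0.155, and G14A, of the miRNA class, at 69.1 and 25.7 RPM and at up to 1.41.
T2C and T3C carry the same letter change in the same place of the nested series and stood at 0 to 6.12 RPM in the captured libraries.

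The other end groups mostly followed the nested series. Group 3 stood at 739 RPM in HOXB8 input, 95.2 in biotin and 107 in WGA. It stood at 290, 99.3, 147 and 52.1 RPM in the differentiated input, biotin, WGA and PNGase F libraries and at 22.2 and 720 RPM in input and WGA of neutrophils. Its WGA to input ratio of 32.4 in neutrophils (25.6 to 41.7) was higher than that of group 1, 8.60 (8.15 to 9.08). Group 5, whose ends lie further along the same records, stood at 8.36 RPM in neutrophil input and 16.1 in WGA. In HOXB8 cells group 5 stood at 719 RPM in input, 12.5 in biotin and 48.5 in WGA. The B1-like group 4 stood at 401, 14.9 and 71.2 RPM in input, biotin and WGA of HOXB8 cells and at 302 and 501 RPM in input and WGA of neutrophils. In neutrophil input it was thus near the level of the far larger group 1, at 444 RPM.

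The simple repeats did not move as 1 body. Group 6, of alternating g and t, was lower in WGA in all 3 kinds of cell, with log2 ratios of −1.48, −0.47 and −1.08 in HOXB8, differentiated and neutrophil libraries. It stood at 38 RPM in differentiated biotin and 1.86 in the PNGase F library, the widest PNGase F difference of a group with reads in both (0.0489 of biotin, 0.0250 to 0.0867). Group 7, of repeated ATGG units, stood at 92.1 RPM in differentiated input and 157 in WGA, and at 0.643 (2 reads) and 47.4 RPM in input and WGA of neutrophils. The neutrophil ratio was 73.7 with a counting interval from 20.3 to 610. Single sequences of group 7 traded places between libraries. Its 17-base lead had no read in differentiated biotin and 25.7 RPM with PNGase F, and an 18-base form, 1 base longer, had 10.9 RPM and no read. The part of the authors' assignment of reads to nearly equal sequences in such trades was not tested. Group 9 had no read in differentiated WGA against 188.2 RPM in input, at most 0.00230 of input by the exact interval.

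**Figure D4:**
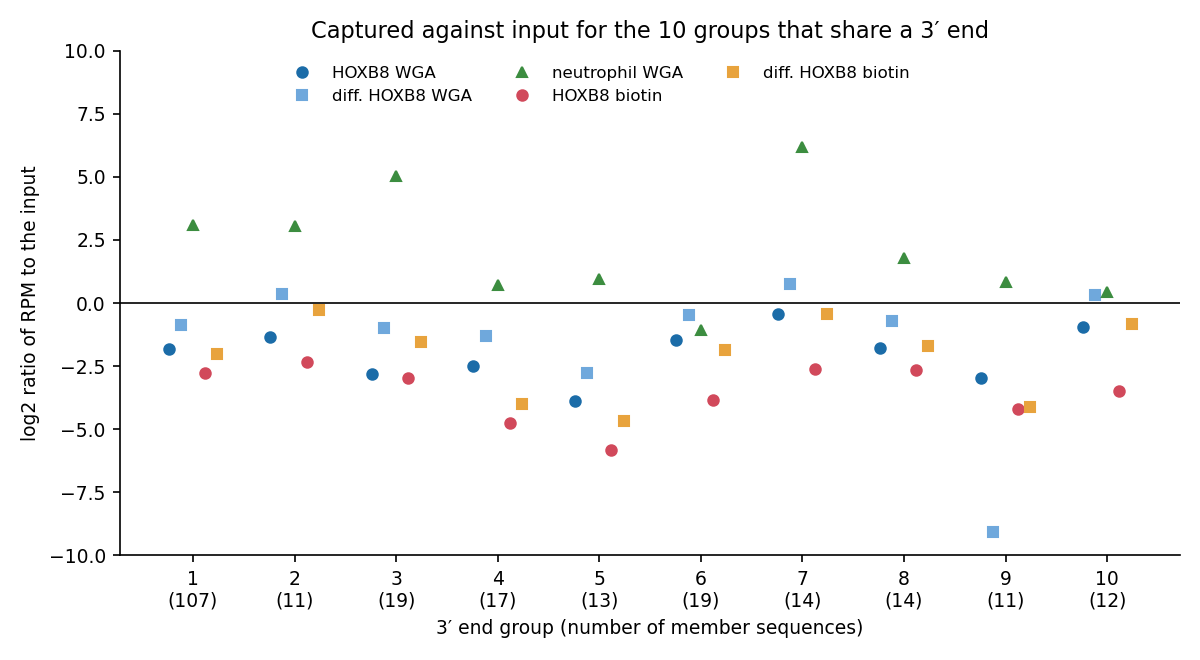
Log2 ratio of summed RPM in the captured library to its input for the 10 groups of members that share their last 8 bases, with the number of members in brackets. In neutrophils 9 of 10 groups lie above 0, all except group 6, and in HOXB8 WGA and HOXB8 biotin all 10 lie below 0. Intervals are not drawn. The neutrophil ratio of group 10 was 1.35 with a counting interval from 0.900 to 2.08, which includes 1. The group 9 point of differentiated WGA is set by the floor of 3 reads.

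Another B1-like sRNA sequence, 18 bases long and outside group 4 by its ending, had the second smallest p of the members.
B1-like sequence, sRNA: cctctgcctcctgagtgc
The sRNA sequence stood at 487 RPM in HOXB8 input, 0 in biotin and 0.362 in WGA (2 reads). It stood at 284 RPM in differentiated input, 0 in biotin, 0 in WGA and 10.5 with PNGase F, and at 112 and 44.0 RPM in input and WGA of neutrophils. Its limma log2 change was −5.99 ± 1.40 (SE) with an adjusted p of 0.133, and WGA was lower in 3 of 3 kinds of cell. The HOXB8 ratio of input to WGA was 1344 with an interval from 371 to 11104.

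The sRNA class held members outside the end groups that stood higher in captured libraries. Its most abundant member is shown first as the table gives it inside a 74-base row of the snoRNA class, with the member in capitals, then with 2 further sRNA members whose levels follow.
snoRNA row with the 27-base sRNA: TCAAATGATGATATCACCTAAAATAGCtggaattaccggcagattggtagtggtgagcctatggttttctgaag
20-base sRNA: tgtcaatgatgtataccttt
54-base sRNA: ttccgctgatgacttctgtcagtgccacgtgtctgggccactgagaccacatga
All 3 hold the letters TGATG, which are part of the C box by which box C/D snoRNAs bind their core proteins. On the read strand these letters were in 3.18% of all sequences of the table, in 7.46% of sRNA members and in 55.5% of the snoRNA class. They lie near the same place of different records, with starts at 34, 35 and 34. The table also held a 28-base snoRNA row that is the 27-base member with 1 more base at its 5′ end, so part of the same RNA was counted under another class. In the 74-base row the 27-base member is followed by TGGAAT, and the part of these letters in where it ends was not tested.

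The 27-base sRNA stood at 6.41 RPM in HOXB8 input, 279 in biotin and 248 in WGA. It stood at 10.2 RPM in differentiated input, 1424 in biotin, 518 in WGA and 1430 with PNGase F, and at 59.8 and 330 RPM in input and WGA of neutrophils. All captured libraries were above all inputs. Biotin was 43.5-fold input in HOXB8 cells (29.2 to 68.1) and 139-fold in differentiated cells (102 to 196), and WGA was 38.8-fold, 50.6-fold and 5.52-fold input in HOXB8, differentiated and neutrophil cells. With PNGase F the 27-base sRNA stood at 1.00 of biotin (0.977 to 1.03), each as a share of its own library. Its limma log2 change in WGA was 4.35 ± 1.06 (SE) with an adjusted p of 0.152, and WGA was higher in 3 of 3 kinds of cell. This 1 sequence made up 68.9% of the sRNA sum in differentiated biotin.

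The 20-base sRNA stood at 29.1, 63.0 and 56.3 RPM in input, biotin and WGA of HOXB8 cells. In the differentiated state it stood at 64.3, 199, 181 and 216 RPM in input, biotin, WGA and PNGase F, and in neutrophils at 146 and 435. Its ratios of WGA to input were 1.94 (1.55 to 2.43), 2.81 (2.46 to 3.23) and 2.98 (2.71 to 3.29). In HOXB8 cells the direction depends on the scale, since as a share of the table the log2 ratio was −0.25 in place of 0.95. The 54-base sRNA stood at 0.267 RPM (1 read) in HOXB8 input, 14.7 in biotin and 18.8 in WGA. It had no read in differentiated input and 93.0, 33.1 and 87.5 RPM in biotin, WGA and PNGase F, and it stood at 7.07 and 75.4 RPM in input and WGA of neutrophils. Differentiated biotin was at least 95.8-fold above input by the exact interval, and neutrophil WGA was 10.7-fold above input (6.99 to 17.1).

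**Figure D5:**
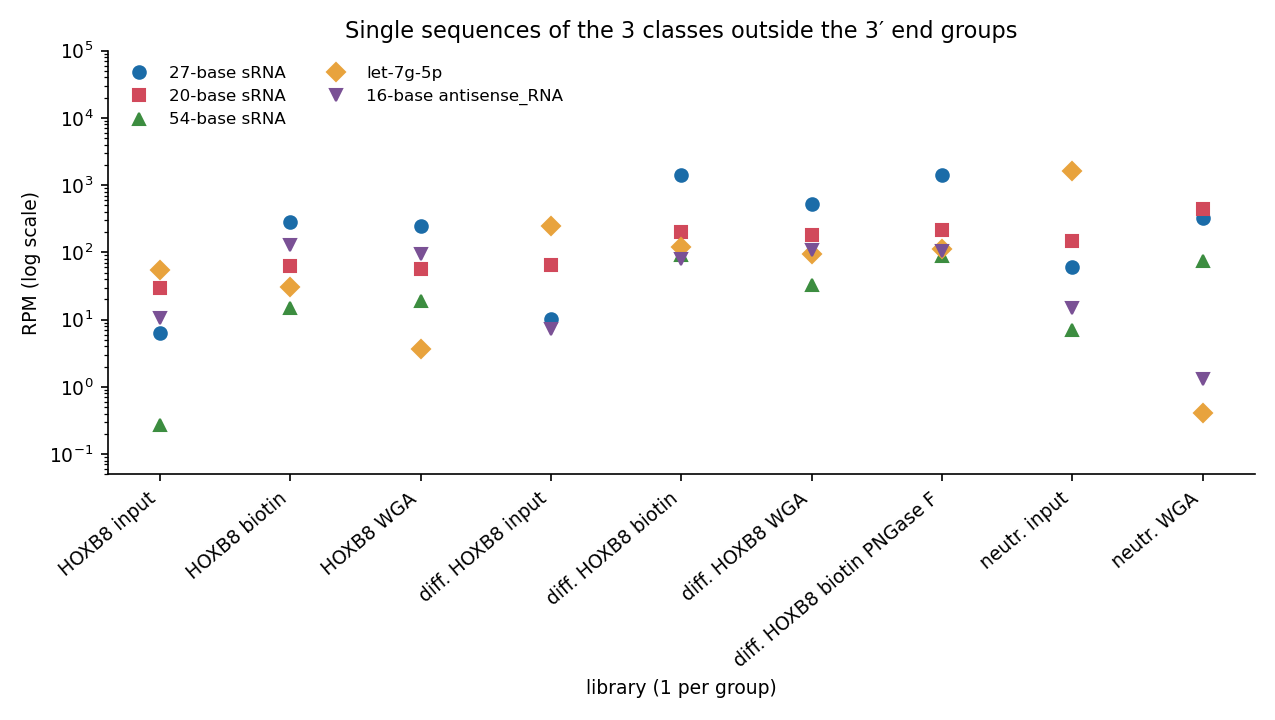
RPM (log scale) of 5 single members in each library, with points at 0 RPM left out. The 27-base and 54-base sRNA lie higher in every captured library than in its input, while let-7g-5p lies highest in neutrophil input, at 1635 RPM, and lowest in neutrophil WGA, at 0.403 RPM.

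A few other members stood at 1 end of the range in a comparison.
16-base precursor_RNA: ttgtagaaggatctga
16-base sRNA, higher in HOXB8 capture: ctccgaggtgcgtggc
16-base sRNA, higher in neutrophil WGA: cctagtcggccatcac
The first stood at 307 RPM in HOXB8 input and 122 in differentiated input and had no read in the other 7 libraries. By the exact intervals, HOXB8 biotin was at least 529-fold lower than input, and differentiated WGA at least 281-fold lower. The next had no read in HOXB8 input, 65.2 RPM in biotin and 72.1 in WGA. By the exact interval WGA was at least 72.8-fold higher. It stood at 0 in differentiated input and WGA, 13.5 RPM in differentiated biotin, 5.43 with PNGase F, 0.643 (2 reads) in neutrophil input and 0 in neutrophil WGA, so its presence in HOXB8 WGA was not seen in the other WGA libraries. The last stood at 1.29 RPM in neutrophil input (4 reads) and 42.3 in WGA, 32.9-fold higher (12.8 to 121), and at 31.2 RPM in HOXB8 input, 25.4 in biotin and 0 in WGA. It had 43.3, 0, 18.3 and 9.46 RPM in differentiated input, biotin, WGA and PNGase F.

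The records with the highest summed level in each class were led by the sequences already described. Record URS000037450D, with 11 precursor_RNA sequences that include the 18-base form, stood at 6610 RPM in HOXB8 input, 2075 in HOXB8 WGA, 58.5 in neutrophil input and 815 in neutrophil WGA. The precursor_RNA records URS0000240772 and URS00003A5974, with 15 and 17 sequences, gave 3505 and 1202 RPM in the HOXB8 input library, 855 and 403 in HOXB8 WGA, 67.2 and 53.4 in neutrophil input, and 668 and 757 in neutrophil WGA. These 3 precursor_RNA records were below input in HOXB8 WGA and above it in neutrophil WGA. Among antisense_RNA, URS0000753F09, with 16 sequences that include the 17-base form, stood at 2635, 684, 186 and 373 RPM in the same 4 libraries, and URS0001C4172B, with 60 sequences over a long stretch, at 798, 335, 67.2 and 151. The sRNA record URS000075D85C, with 18 sequences, stood at 968, 369, 27.6 and 230 RPM. The remaining leading records hold 1 or 2 sequences, and the values of their main sequence are given with it.

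The other members at 1 end of the range in a comparison belong to the end groups or are 1 base from the nested series. The 34-base nested form stood at 1.31 RPM in differentiated input and 6.34 in biotin, 4.83-fold higher (1.94 to 15.5), and at 0 and 66.4 RPM in input and WGA of neutrophils. The 21-base antisense_RNA form of group 8 on URS0001C4172B stood at 39.0 RPM in HOXB8 input and 30.8 in WGA, and at 0.643 (2 reads) and 9.67 in neutrophil input and WGA. Its neutrophil ratio was 15.0 with an interval from 4.05 to 126. The antisense_RNA variant G16A of the 17-base form stood at 4.97 RPM in differentiated biotin and 0.155 (1 read) with PNGase F, 0.0312 of biotin (0.000771 to 0.184). An 18-base sRNA sequence on URS000075D85C stood at 19.01 RPM in differentiated biotin and had no read with PNGase F, at least 32.8-fold lower. Both thus lay lower with PNGase F, while the class sums differed little. The lead of group 10 stood at 76.3 RPM in HOXB8 input and 4.17 in WGA, and at 2.25 (7 reads) and 0 in neutrophil input and WGA.

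Other classes shared letters with the members beyond the snoRNAs. Of the precursor_RNA members, 121 of 257 (47.1%) lay whole inside a longer sequence of another class, most often pre_miRNA (98). The figure was 33 of 104 (31.7%) for antisense_RNA and 56 of 134 (41.8%) for sRNA. The same share for sequences of the other classes was not computed, so these figures are not a trait of the members.

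In the RefSeq table of mature microRNAs, 8 precursor_RNA members matched an entry, being the same, longer or shorter at an end, for 7 microRNAs. No other microRNA source was searched. Of the 8, 7 started at position 81 of their record. Among the 8, the 1 with the same letters throughout was let-7g-5p. It belongs to the let-7 family, which restrains growth genes and rises as cells mature. Its mature RNA lies on chromosome 9 from 106178846 to 106178867 (GRCm38.p6, plus strand, gene Mirlet7g), and the seed, bases 2 to 8, is in capitals.
let-7g-5p: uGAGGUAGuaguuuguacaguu
let-7g-5p stood at 55.3 RPM in HOXB8 input, 30.6 in biotin and 3.62 in WGA. It stood at 245 RPM in differentiated input, 121 in biotin, 93.1 in WGA and 112 with PNGase F, and at 1635 RPM in neutrophil input and 0.403 in WGA (4 reads). Its level in input was highest in neutrophils and lowest in HOXB8 cells, and captured libraries were below input in every kind of cell. Neutrophil input was 4056-fold above WGA (1583 to 14893), against 2.63-fold in differentiated cells (2.39 to 2.89) and 15.3-fold in HOXB8 cells (9.63 to 25.5). This member alone held 71.8% of the precursor_RNA sum in neutrophil input and 45.9% of all member RPM there. Of 2 members that match miR-21a-5p, the 24-base one, with 2 more bases than the RefSeq form, had no read in any WGA library and stood at 7.48, 39.4 and 113 RPM in HOXB8, differentiated and neutrophil input. The 19-base one, on the same record, stood at 1.07, 3.68 and 18.6 RPM in these inputs, at 8.87 in HOXB8 WGA, 8.06 with PNGase F and 0 in the other captured libraries. In HOXB8 cells the shorter form was above input in WGA and the longer form below it.
The member 1 base shorter than miR-340-5p also stood higher in HOXB8 WGA than in input.
21-base precursor_RNA, miR-340-5p less 1 base: ttataaagcaatgagactgat
It stood at 2.14, 2.35 and 9.60 RPM in input, biotin and WGA of HOXB8 cells, 4.49-fold higher in WGA (2.12 to 10.9). It stood at 23.6, 18.6, 5.39 and 40.8 RPM in differentiated input, biotin, WGA and PNGase F, and at 70.1 and 0 in input and WGA of neutrophils. Another precursor_RNA member that starts at position 81, 22 bases on record URS0000EFE255, had no match in the RefSeq table. Whether it is a mature microRNA outside that table was not looked up. It stood at 0.534 RPM (2 reads), 7.84 and 2.54 in the HOXB8 libraries, so that biotin was 14.7-fold input (3.86 to 125). It stood at 5.25, 7.08, 29.2 and 33.3 RPM in the differentiated libraries and at 56.6 and 0 in neutrophils. Both were highest in neutrophil input and had no read in neutrophil WGA.

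Among antisense_RNA members, 2 sequences of 16 bases moved against their class. Each differs by 1 base, in capitals, from a 16-base row of the Genome class listed on chromosome 7 from 81731500 to 81731515 in the authors' table.
Genome row: agcggagtagagcagt
T16A, antisense_RNA: agcggagtagagcagA
C3T, antisense_RNA: agTggagtagagcagt
The Genome row stood at 7200 RPM in HOXB8 input, 306910 in biotin and 193172 in WGA. It stood at 6041, 192251, 252595 and 189676 RPM in the differentiated input, biotin, WGA and PNGase F libraries and at 10282 and 755 RPM in input and WGA of neutrophils. The T16A member stood at 10.7, 127 and 94.9 RPM in input, biotin and WGA of HOXB8 cells, at 7.35, 78.7, 107 and 106 in the 4 differentiated libraries in the same order, and at 15.1 and 1.31 in input and WGA of neutrophils. Like the Genome row, it was higher on capture in HOXB8 cells and lower in neutrophil WGA, at 0.0867 of input (0.0430 to 0.163). The T16A member was 0.0409% to 0.174% of the Genome row in each library. The table held 46 of the 48 possible single-base neighbours of the Genome row, at 0.00156% to 0.207% of its mean RPM, and the 2 members, at 0.0473% and 0.0140%, lay within that range. The C3T member stood at 1.87, 46.4 and 21.7 RPM in input, biotin and WGA of HOXB8 cells, with a biotin to input ratio of 24.8 (11.9 to 62.3). It stood at 0.788, 29.9, 22.8 and 36.7 RPM in the 4 differentiated libraries and at 2.25 and 0 in input and WGA of neutrophils. The part of sequencing errors in these 2 members was not tested.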

How the data were processed

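Per the labels, small RNA libraries were made with the TruSeq small RNA kit. The deposited table gives RPM per unique sequence, scaled by the authors to each library's reads. In all 9 libraries 100% of the values were whole multiples of 1 read within 0.01, so reads were recovered from them. Genome build mm10 is named in the submitters' processing notes. For the aligner, trimming, filter and the rule that gave a sequence 1 record and class, the entry is "not given in the sources used here". RNA-seq files were left aside.

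Ratios of RPM carry 95% exact conditional intervals from recovered reads (Python 3.11.15, scipy 1.17.1), with Clopper-Pearson limits. For the 2-fold counts, the medians beside them and the choice of highest and lowest ratios, a library under 3 reads was set to a floor of 3 reads. A sequence with 3 reads or fewer in both libraries had no such ratio. Where 1 library had 0 reads, the text gives the limit of the exact interval. WGA and input were compared over 3 kinds of cell with limma 3.58.1 on log2(RPM + 1), the kind of cell as a block and Benjamini-Hochberg adjustment over 18385 sequences, and with edgeR 4.0.16 on recovered reads. Scripts were tested on simulated data. Named were, for each class, the 3 most abundant sequences and records, the highest and lowest ratio in each pair, and the 3 smallest limma p. Members, lists and rules were chosen with earlier results of these data known, and the 3′ end groups, the single-base neighbours the snoRNA-like and microRNA members, and the single rows of the Genome, snoRNA and miRNA classes after their values were seen.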

Additional observations from a re-analysis of the deposited data

Results flagged for a closer look

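In these results WGA lay below input in the undifferentiated and differentiated HOXB8 libraries and above input in the neutrophil libraries. Each group holds 1 library, and the difference between the kinds of cell was not tested. The log2 ratio of neutrophil WGA to neutrophil input was 0.98 for the precursor_RNA sum, 1.01 for the antisense_RNA sum and 1.09 for the sRNA sum. For the nested series it was 2.92 in neutrophils and −1.76 in HOXB8 cells.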

How the results depend on the processing

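Log2 ratios of class sums to input are given below in the order precursor_RNA, antisense_RNA, sRNA. As a share of the table they were −3.08, −3.05 and −2.94 for HOXB8 WGA, −1.26, −1.20 and −0.74 for differentiated WGA, −4.05, −4.00 and −3.48 for HOXB8 biotin, and −2.31, −2.30 and −0.21 for differentiated biotin, where sRNA turned from 0.20. Without the most abundant sequence of each class they were −2.02, −1.69 and −2.08 for HOXB8 WGA, −0.82, −0.13 and −0.89 for differentiated WGA, 0.87, 1.22 and 0.92 for neutrophil WGA, and −2.96, −2.53 and −2.87 for HOXB8 biotin. For differentiated biotin that setting gave −1.45 for antisense_RNA and −1.48 for sRNA, which turned, and −0.13 for sRNA with PNGase F against biotin. With 20 or more bases they were −0.62, 0.54 and 0.69 for differentiated WGA, where antisense_RNA and sRNA turned, 0.40, 2.18 and 1.21 for neutrophil WGA, −2.94, −3.13 and −1.63 for HOXB8 biotin, and −1.56, −1.22 and 1.56 for differentiated biotin. HOXB8 WGA then gave −1.57 for antisense_RNA and −1.56 for sRNA, and PNGase F against biotin gave −0.065 for precursor_RNA and −0.20 for antisense_RNA. The 20-base sRNA turned to −0.25 in HOXB8 WGA as a share of the table. On that scale, extended to the other named members after the data were seen, so did 5 precursor_RNA forms: the 18-base form of group 7 (−0.75) and the 32-base (−0.43), 33-base (−0.033), 35-base (−0.21) and 38-base (−0.30) sequences of the nested series, the 33-base one also in HOXB8 biotin (−0.082). The cause of these turns was not tested, apart from the weight of 1 sequence in the sRNA class. In HOXB8 WGA, HOXB8 biotin and neutrophil WGA no class turned under these 3 settings. The limma fit called 11 members (10 lower) among 120 tested at a mean of 10 RPM or more over its 6 libraries (9.17%, against 507 of 3831 sequences, 13.2%), and 0 to 20 when a kind of cell was left out (20 without HOXB8, 4.04% against 2109 of 18385, 11.5%, 3 without differentiated HOXB8, against 543 sequences, 2.95%, 0 without neutrophils). It called 0 with pseudocounts of 0.1 and 10 RPM, with centring and without the block. At 4-fold, 9.09% of members were higher in differentiated WGA, 8.08% in differentiated biotin and 10.1% with PNGase F, against 32.3%, 41% and 7.58% of all sequences, and at a mean of 1 RPM or more 39.7% were higher and 11.1% lower in neutrophil WGA, against 12.6% and 15.9%. No paired analysis was possible because each small RNA group holds 1 library, so that replicate numbers pair nothing. The limma fit already sets WGA against input within each kind of cell. The floor of 3 reads stands for 0.302 to 0.965 RPM, depending on the library.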
